A study of Mus musculus with 12 samples.

Results

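The AGO2-bound sites of the 3 myomesin genes, Myom1, Myom2 and Myom3, were examined in chimeric eCLIP libraries of mouse tibialis anterior (TA) muscle. A listed peak was counted for a gene when it overlapped the gene in GENCODE M21 by at least 1 nucleotide on the same strand, with no threshold on fold or p-value. In all, 1821 of the 1426686 peaks in the 8 deposited lists met this rule. The 4 lists that set an immunoprecipitated library against its input held 912 of them among 713343 peaks, with 485 in Myom1, 377 in Myom2 and 50 in Myom3. The 4 direct lists compare WT and KO libraries at nearly the same coordinates and hold the rest.

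All mice were 6 months old and, per the study's methods, male. WT mice, given the strain C57BL/6 in the labels, were compared with miR-486-/- mice (mir-486 KO), labelled FVB N/J and carrying a CRISPR deletion in the miRNA hairpin. The methods describe a shared background after backcrossing, so genotype and named strain cannot be told apart from the labels. Set 1 and set 2 each held 1 WT and 1 KO library of RNA crosslinked to AGO2, the protein that carries miRNAs, and 1 input for each. Whether the sets came from different mice is not given in the sources used here, and the libraries enriched for miR-486 were not analysed here.

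The M-band is the cross-linked line in the middle of the sarcomere where neighbouring thick filaments are held in register. Myomesins are elastic proteins built from immunoglobulin and fibronectin domains that bridge myosin filaments and bind titin. Myomesin-1 (Myom1) is found in all striated muscle and has an embryonic-heart (EH) isoform with an extra elastic segment. Myomesin-2 (Myom2), also called M-protein, marks fast fibres and the heart, and myomesin-3 (Myom3) is found in fibres of intermediate speed. AGO2 is guided by the seed of the miRNA, bases 2 to 8, usually to complementary words in the mRNA. In eCLIP, sites bound by AGO2 are read as peaks of sequenced fragments, and each is set against the input of the same sample.

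The libraries were first checked against their labels. The Mir486 gene held 2 listed peaks in WT and 0 in KO of set 1, and 4 in WT and 0 in KO of set 2, and every one of those WT peaks was enriched over input. The 6 fast-fibre markers (Myh4, Myh1, Tnnt3, Tnni2, Actn3 and Mylpf) had 353 and 385 listed peaks in WT and KO of set 1, and 650 and 614 in set 2. The 6 slow-fibre markers had 106 and 90 peaks in set 1 but 15 and 16 in set 2. Myh7, the slow myosin heavy chain, had 53 and 51 peaks in set 1 against 1 and 0 in set 2. Tnnt1, Tnni1, Tnnc1 and Myl2 also had fewer in set 2. Myl3 did not follow, with 8 and 5 peaks in set 1 and 7 and 8 in set 2. Of the 4 heart markers, Nppa and Myl7 had 0 peaks in every library, while Myl4 had 2 to 4 peaks. The cardiac myosin Myh6 had 16 (set 1 WT), 12 (set 1 KO), 4 (set 2 WT) and 12 (set 2 KO), and 1 of those in set 1 WT was enriched. The 8 markers of endothelial, immune, connective tissue, fat and satellite cells had between 67 and 238 peaks. The sets thus differed in their slow-fibre peaks, apart from Myl3, and the part of this in the myomesin values was not tested. In whole muscle, fewer cells of a type and less RNA per cell cannot be told apart.

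The sequences on which the results turn are given first, 5′ to 3′ on the plus strand of GRCm38, to which all 3 genes belong. The muscle miRNAs miR-206-3p and miR-133b-3p enter below, and their mature forms, from RefSeq, have the seed in capitals. Those of miR-486-5p, miR-1a-3p and miR-133a-3p were not in the table used here. As background, miR-206 has the same seed as miR-1, and miR-133b the same seed as miR-133a.
mmu-miR-206-3p: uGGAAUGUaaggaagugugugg
mmu-miR-133b-3p: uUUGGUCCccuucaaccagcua
The word that pairs with the miR-206-3p seed is ACATTCC, the word for miR-133b-3p is GGACCAA, and the word for miR-486-5p is GTACAGG. All were searched on the strand of the gene only.

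The Myom2 peaks with the highest folds that lie in coding sequence are shown whole. They cover the start of exon 2 (chr8:15063833-15063958), neighbouring stretches of exon 16 (chr8:15102557-15102581 and chr8:15102582-15102658) and a stretch of exon 19 (chr8:15108367-15108462). Capitals mark a miR-133b-3p seed word in exon 2, and the other stretches hold none of the 3 words.
Myom2 exon 2 peak: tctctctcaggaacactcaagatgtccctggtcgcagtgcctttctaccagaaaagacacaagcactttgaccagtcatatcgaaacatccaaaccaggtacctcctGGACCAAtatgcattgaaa
Myom2 exon 16, first peak: ccaaagcatgaagaggacctgctgg
Myom2 exon 16, next peak: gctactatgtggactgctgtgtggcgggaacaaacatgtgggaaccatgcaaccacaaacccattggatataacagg
Myom2 exon 19 peak: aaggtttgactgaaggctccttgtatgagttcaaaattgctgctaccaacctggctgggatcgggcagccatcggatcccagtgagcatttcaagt
The stretch covered by the enriched set 2 peaks of Myom2 is the end of intron 1 and the first 2 bases of exon 2 (chr8:15063828-15063844), with the exon in capitals.
Myom2 start of exon 2: ttgtttctctctcagGA

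The 1 enriched peak of Myom1 was intronic (chr17:71041178-71041288). It is shown with the stretch of Myom1 exon 27 that holds the miR-206-3p word (chr17:71106273-71106309), that of Myom2 exon 10 with the miR-133b-3p word (chr8:15081271-15081307) and that of Myom3 exon 20 with the miR-486-5p word (chr4:135789548-135789584). Capitals mark the word in each.
Myom1 intron peak: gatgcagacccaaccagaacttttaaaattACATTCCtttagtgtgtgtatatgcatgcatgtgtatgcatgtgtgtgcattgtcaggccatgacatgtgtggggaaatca
Myom1 exon 27: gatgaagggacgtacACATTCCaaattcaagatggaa
Myom2 exon 10: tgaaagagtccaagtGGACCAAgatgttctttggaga
Myom3 exon 20: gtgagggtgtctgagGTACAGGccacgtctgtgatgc

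Myom1 and Myom2 were covered by peaks almost end to end, and Myom3 was not. Myom1 (ENSMUSG00000024049.15, chr17:71002633-71126856) had 94 listed peaks in set 1 WT, 100 in set 1 KO, 138 in set 2 WT and 153 in set 2 KO. Myom2 (ENSMUSG00000031461.4, chr8:15057653-15133541) had 67, 71, 120 and 119 in the same order. Myom3 (ENSMUSG00000037139.15, chr4:135759715-135815564) had 17, 7, 15 and 11. Peak numbers of Myom1 and Myom2 thus differed more between the sets than between WT and KO of a set. The lists themselves were longer in set 2, with 244814 (WT) and 256219 (KO) peaks against 92451 and 119859 in set 1. Among coding genes with a listed peak, at most 1.16% had as many peaks as Myom1 in a library and at most 1.81% as many as Myom2, while between 11.6% and 49.6% had as many as Myom3. Over the 3 genes, WT to KO peak numbers stood at a log2 ratio of 0.00 (set 1) and −0.05 (set 2), averaging −0.03. No test was made, since 2 libraries against 2 allow no two-sided exact permutation p below 0.333.

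Per length of the longest coding transcript the contrast between the genes remained. The Myom1 mRNA of 5648 nt and 38 exons carried 11.0 exonic peaks per kb in set 1 WT, 8.50 in set 1 KO, 16.5 in set 2 WT and 16.8 in set 2 KO. The Myom2 mRNA of 5075 nt and 37 exons carried 12.2, 11.4, 21.7 and 20.3 per kb. The Myom3 mRNA of 5575 nt and 37 exons carried 3.05, 1.26, 2.33 and 1.26 per kb. Peaks covered between 86.2% and 96.6% of the Myom1 and Myom2 mRNAs in every library, and between 9.70% and 26.2% of Myom3. The longest run of bases that any pair of the 3 mRNAs had in common was 20 nt, between Myom2 and Myom3.

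Most peaks lay in coding sequence, read at the peak midpoint. For Myom2 the share in CDS was 88.1% in set 1 WT, 76.1% in set 1 KO, 86.7% in set 2 WT and 83.2% in set 2 KO. For Myom1 it was 62.8%, 44.0%, 63.8% and 58.2%, and introns held most of the rest with 31.9%, 46.0%, 29.0% and 33.3%. Over all peaks of the 4 lists the CDS share was 51.8%, 35.5%, 40.2% and 39.7%. Myom2 and Myom1 lay above that share in every library. Myom3 had all 17 peaks in CDS in set 1 WT, 6 of 7 in set 1 KO, 12 of 15 in set 2 WT and 6 of 11 in set 2 KO. In the annotation, all Myom1 peaks also lay within the long noncoding gene Gm26561 on the same strand, so intronic peaks of Myom1 cannot be told apart from that gene. No other gene on the same strand overlapped Myom2 or Myom3.

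**Figure D1:**
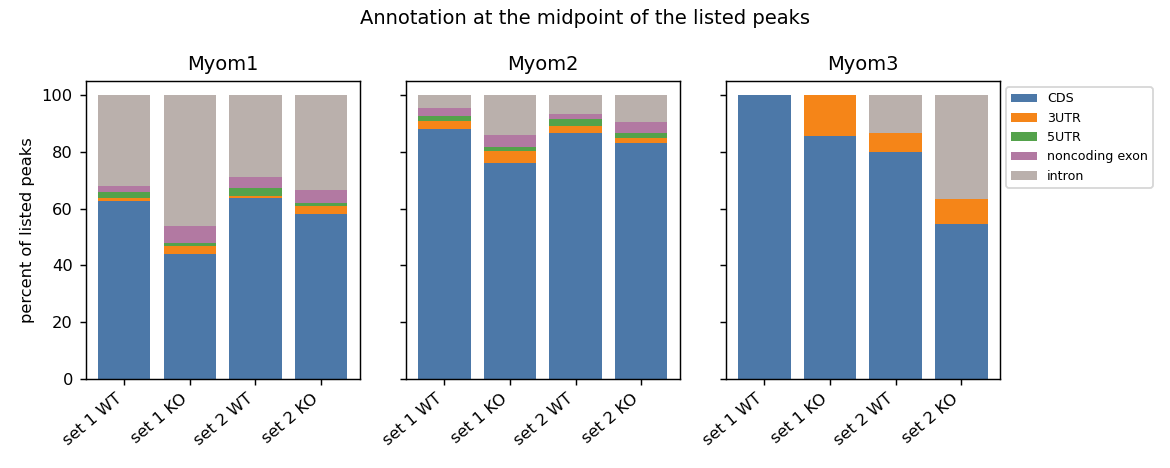
Percent of listed peaks (vertical axis) by annotation at the peak midpoint, for each gene and each of the 4 libraries over input. Myom2 bars are mostly CDS, between 76.1% and 88.1%, and Myom1 has the largest intron shares among the libraries with 30 or more peaks, from 29.0% to 46.0%.

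Among the 3 myomesin genes, enrichment over input was found mainly in Myom2 and mainly in 1 library. A peak is called enriched here when the authors' log2 fold is at least 3 and their −log10 p is at least 3. In set 1 WT, 10 of 67 Myom2 peaks, 1 of 94 Myom1 peaks and 0 of 17 Myom3 peaks were enriched, where 3.57% of all peaks of that list were. In set 1 KO none of the 178 myomesin peaks was, against 0.848% of all peaks. In set 2, 1 of 120 Myom2 peaks was enriched in WT and 2 of 119 in KO, against 1.42% and 1.23% of all peaks, and 0 of Myom1 and Myom3. The Myom2 share in set 1 WT was 14.9% and in the other libraries at most 1.68%. Other muscle genes had a like contrast. The thick filament list held Myh1, Myh2, Myh4, Myh7, Mybpc1, Mybpc2 and Mybph. Of its peaks, 93 of 469 were enriched in set 1 WT and 0 of 481 in set 1 KO, and 6 of 801 and 7 of 737 in set 2. The fast-fibre markers, which share Myh1 and Myh4 with it, had 64 of 353 and 0 of 385 in set 1. They had 1 of 650 and 2 of 614 in set 2.

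At a log2 fold of at least 1 with the same p limit, Myom2 stood above the background in every library. Past it were 35 of 67 Myom2 peaks in set 1 WT, 6 of 71 in set 1 KO, 28 of 120 in set 2 WT and 39 of 119 in set 2 KO. Myom1 had 14 of 94, 1 of 100, 6 of 138 and 11 of 153, and Myom3 had 1 of 17 and then 0 in the other libraries. The shares over all peaks were 7.14%, 1.99%, 5.37% and 4.72%. Myom1 was above its background in 2 libraries, set 1 WT and set 2 KO, and below it in set 1 KO and set 2 WT. Standing above the background in every library was not particular to Myom2. In the same order, the fast-fibre markers had 289 of 353, 63 of 385, 219 of 650 and 206 of 614 peaks past these limits. The thick filament list had 298 of 469, 67 of 481, 236 of 801 and 244 of 737.

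The medians over all peaks of a gene followed the libraries. The median log2 fold over input of Myom2 was 1.70 in set 1 WT, 0.21 in set 1 KO, 0.41 in set 2 WT and 0.54 in set 2 KO. Myom1 had 0.96, −0.02, 0.25 and 0.09, and Myom3 had 0.46, −0.62, 0.21 and 0.82. The median over all peaks was 0.68, 0.38, 0.47 and 0.45. Among genes with at least 20 peaks, 3.6% of 916 had a median as high as Myom2 in set 1 WT, and 79.7%, 60.3% and 42.6% did in set 1 KO, set 2 WT and set 2 KO. For Myom1 these shares were 18.1%, 85.9%, 68.6% and 76.6%. The high median of Myom2 was thus found in set 1 WT and in no other library. It was not particular to Myom2. The median of the gene medians in set 1 WT was 1.78 for the thick filament list and 1.84 for the fast-fibre markers. These were 0.29 and −0.2 in set 1 KO, 0.55 and 0.29 in set 2 WT, and 0.51 and 0.22 in set 2 KO.

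**Figure D2:**
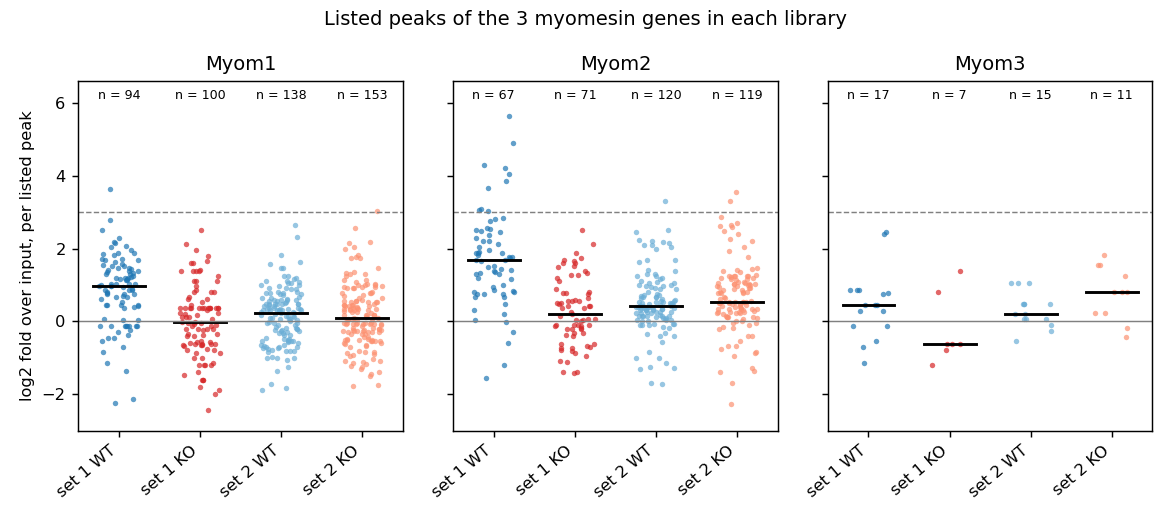
Log2 fold over input (vertical axis) of each listed peak of Myom1, Myom2 and Myom3 in the 4 libraries, 1 point per peak with the median as a black bar; the dashed line is the log2 threshold of 3 and n is the number of peaks. Myom2 in set 1 WT has the highest points, up to 5.65, and a median of 1.70.

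The first exons of Myom2 carried its highest folds. In exon 1, which lies in the 5′ UTR, the peak at chr8:15057659-15057745 had a log2 fold of 5.65 in set 1 WT (−log10 p 48.4), the highest of any myomesin peak. The overlapping peaks had 1.88 in set 1 KO, 2.23 in set 2 WT and 2.61 in set 2 KO. Set 1 WT, the library this peak was chosen from, was above the others, and set 1 KO was the lowest. In exon 2, which holds the start codon, the peak shown above had 4.89 in set 1 WT (−log10 p 42.4) and its best overlap had 1.65 in set 1 KO, 2.11 in set 2 WT and 2.86 in set 2 KO.

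At the border of intron 1 and exon 2 the same place was enriched in 3 of 4 libraries. In set 2 the enriched peaks were short pieces there, 13 nt long with 3.31 in WT (−log10 p 26.9), and 12 nt long with 3.54 in KO (−log10 p 30.9). A second KO piece of 5 nt across the border had 3.30 (−log10 p 74.1), and the WT piece of 4 nt there had 2.52 (−log10 p 63.7), below the threshold. The peak of set 1 KO that covers this border had 1.65 (−log10 p 6.16). Folds in set 2 were lower toward the end of the exon, down to 2.11 in WT and 1.76 in KO. The pieces adjoin each other and share reads, so they are not separate sites.

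**Figure D3:**
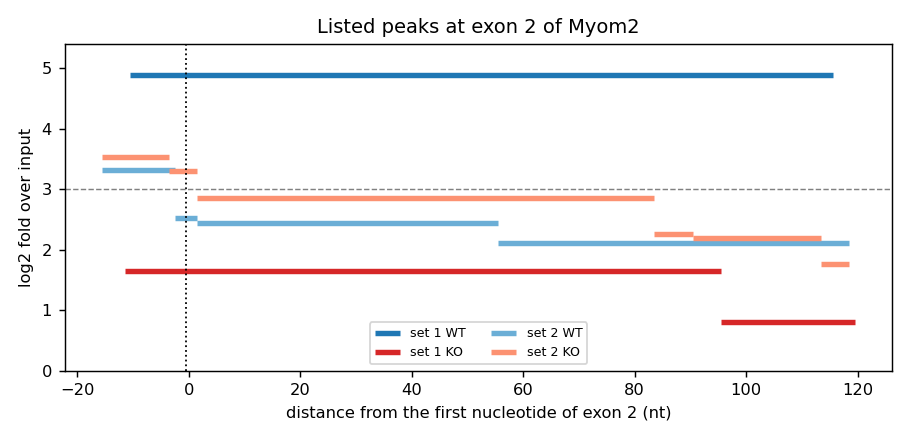
Log2 fold over input (vertical axis) of every listed peak at exon 2 of Myom2 against the distance from the first nucleotide of the exon in nt, with 1 bar per peak coloured by library; the dotted line is the exon border and the dashed line the threshold of 3. Set 1 WT lies at 4.89, the 3 pieces above the threshold in set 2 lie at the border, and set 1 KO lies at 1.65 and 0.80.

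The other enriched Myom2 peaks lay in exons 16, 17, 19, 20 and 21, all in set 1 WT. Exon 16 held 3 adjoining peaks with 3.65, 4.20 and 4.04, and exon 19 held 2 with 4.29 and 3.86. Exons 17, 20 and 21 held 1 each with 3.06, 3.03 and 3.08. At the same places set 1 KO had between 0.78 and 1.69, set 2 WT between 0.95 and 2.16, and set 2 KO between 0.96 and 2.71. Every set 1 WT value was above those of the other libraries. These peaks were chosen for passing the threshold in set 1 WT, so that order is in part set by the choice. When exons were ranked by their highest peak, exons 1, 2 and 16 were among the first 4 in each of the 4 libraries, out of 35 to 37 exons with a peak. These exons were singled out after their values were seen.

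In Myom1, exon 27 stood near the top of every library and was singled out after its values were seen. Its peak had a log2 fold of 2.17 in set 1 WT (−log10 p 14.2), 1.66 in set 1 KO (7.13), 1.83 in set 2 WT (41.7) and 2.17 in set 2 KO (56.9). It ranked first of the Myom1 exons in both set 2 libraries, and was among the first 4 in both set 1 libraries. WT and KO overlapped, with set 1 WT and set 2 KO at the same value. In the direct lists it stood at 0.71 in WT over KO of set 1 (−log10 p 6.06) and at 0.26 in KO over WT of set 2 (−log10 p 3.09). WT was the higher in set 1 and KO in set 2. The intronic Myom1 peak, chosen as enriched in set 1 WT, had 3.63 there (−log10 p 3.15) and 1.97 in set 1 KO (0.523). Its overlaps in set 2 had 2.32 in WT (4.10) and 1.99 in KO (3.86). In the direct lists, WT over KO stood at 1.59 in set 1 (−log10 p 2.53) and at −0.07 in set 2. KO over WT stood at 0.11 in set 2.

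Along the mRNA, the folds had a similar outline in different libraries. For Myom2, Spearman's rho between the log2 folds of overlapping exonic peaks was between 0.63 and 0.76 for the 6 pairs of libraries, over 58 to 109 peaks. For Myom1 it was between 0.75 and 0.79 for the 3 pairs without set 1 WT, over 48 to 93 peaks, and 0.32, 0.42 and 0.49 for the pairs with set 1 WT, over 60 or 61. For Myom3 only 2 pairs had 6 or more overlapping peaks, with −0.16 and 0.06 over 8 and 6. These are descriptions across peaks of 1 transcript, which share sequence and base composition and are not replicates. Across genotypes rho was 0.32 for Myom1 and 0.63 for Myom2 in set 1, and 0.76 and 0.73 in set 2.

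Myom2 folds were lower toward the 3′ end. The rank correlation of log2 fold with position along the Myom2 mRNA was −0.49 in set 1 WT, −0.45 in set 1 KO, −0.38 in set 2 WT and −0.52 in set 2 KO, over 58 to 110 exonic peaks. The median over all coding genes with at least 20 exonic peaks was 0.06, 0.22, 0.12 and 0.14, and between 5.87% and 12.8% of those genes had a correlation as low as Myom2. For Myom1 the values were −0.31, 0.10, 0.19 and 0.19. In the first 507 nt of the Myom2 mRNA the median was 3.19, 1.28, 2.11 and 1.42, and from base 4568 to the end it was −1.37, −0.99, −1.48 and −1.98, over 2 to 12 peaks a stretch. Of 10 equal stretches of the Myom1 mRNA, the last, from base 5084, had the lowest median in all 4 libraries, with −1.37, −1.99, −1.21 and −1.26 over 1 to 5 peaks.

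The 3′ UTR, where many miRNA sites lie, was below input in Myom1 and Myom2. All 9 Myom1 peaks there had negative log2 folds in the 4 lists, from −0.77 to −2.42, and so did all 10 Myom2 peaks, from −0.87 to −2.28. The 3′ UTR median minus the CDS median of Myom2 was −3.11 in set 1 WT, −1.41 in set 1 KO, −2.09 in set 2 WT and −2.52 in set 2 KO. For Myom1 it was −2.50, −1.77, −1.90 and −1.45. Over coding genes with at least 10 CDS peaks and a 3′ UTR peak, the median difference was 0.08, 0.35, 0.12 and 0.17. A difference as low was found in at most 3.28% of them for Myom2 and at most 5.19% for Myom1. The median over all 3′ UTR peaks was above input, at 0.87, 0.61, 0.60 and 0.56. Myom3 had 1 peak there in 3 libraries, with 0.80 in set 1 KO, 0.47 in set 2 WT and −0.44 in set 2 KO.

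**Figure D4:**
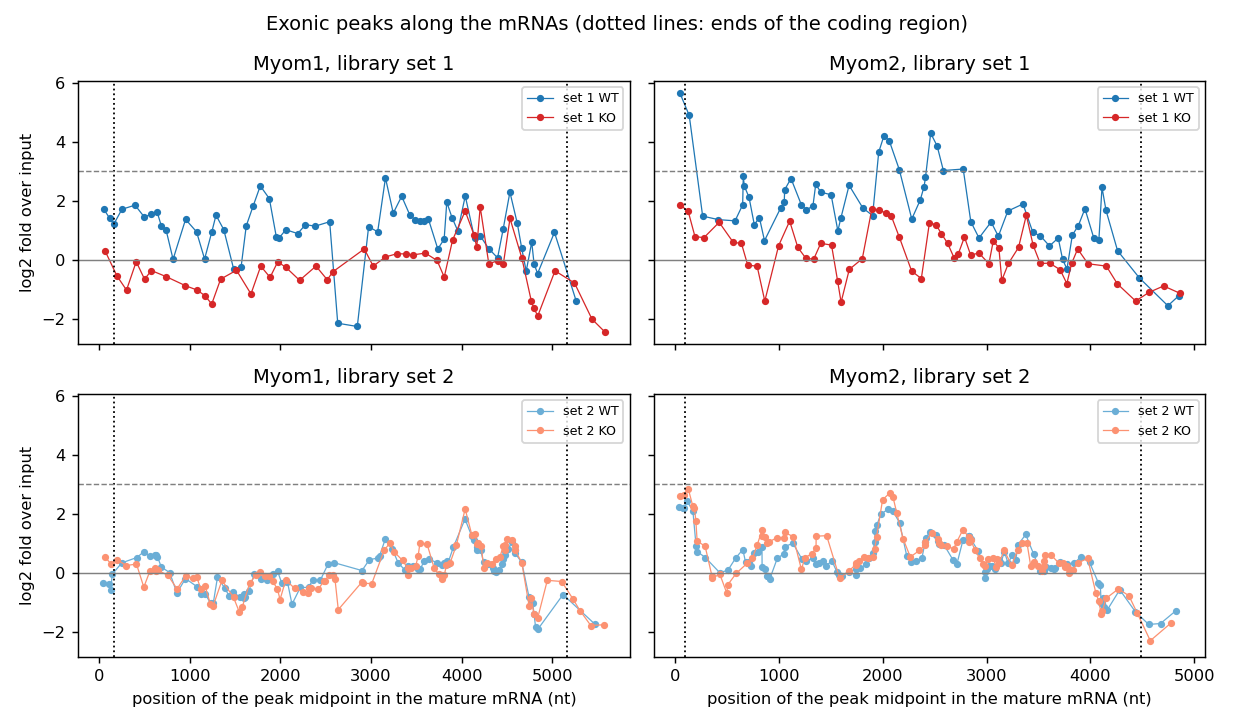
Log2 fold over input (vertical axis) of exonic peaks of Myom1 and Myom2 against the position of the peak midpoint in the mature mRNA in nt, with WT in blue and KO in red, set 1 above and set 2 below; dotted lines are the ends of the coding region, and the dashed line is the threshold of 3. Myom2 is highest at its 5′ end, up to 5.65 in set 1 WT, and both genes lie below 0 in the 3′ UTR.

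Exon 18 of Myom1, the 294 nt (chr17:71082203-71082496) present in the longest transcript alone and the segment of the EH isoform, had few peaks and low folds. Set 1 WT had 2 peaks with −2.13 and −2.24, set 2 KO had 1 with −1.23, and set 1 KO and set 2 WT had 0. It was the exon without a peak in the 2 libraries where 37 of 38 Myom1 exons had one. Exon 19, which follows it, was chosen after its values were seen. Its highest fold over input was 1.13 in set 1 WT, 0.38 in set 1 KO, 0.59 in set 2 WT and −0.30 in set 2 KO. In the direct WT-over-KO lists it had a log2 fold of 0.97 in set 1 (−log10 p 4.46). In set 2 it held 4 adjoining peaks between 0.75 and 0.91 (−log10 p from 3.65 to 12.2), the only Myom1 peaks of that list with a −log10 p of at least 3. They made up 2.92% of the 137 Myom1 peaks of the list, where 0.975% of all peaks had such a p. WT was thus the higher at this exon in both sets. The part of strain or of isoform use in this was not tested.

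The direct lists asked which myomesin sites differed between WT and mir-486 KO. No myomesin peak passed both thresholds in any of them. Over all peaks, 0.469% passed in WT over KO of set 1 and 0.0192% in set 2, and 0.179% and 0.0144% in KO over WT. At a log2 fold of at least 1 and the same p limit, 33 of 67 Myom2 peaks, 19 of 94 Myom1 peaks and 1 of 17 Myom3 peaks passed in WT over KO of set 1, where 4.85% of all peaks did. In set 2, 0 of 272 myomesin peaks passed, where 0.403% of all peaks did. In KO over WT 0 passed in both sets, against 0.755% of all peaks in set 1 and 0.144% in set 2. WT-over-KO values past these limits were thus found in set 1 and not in set 2. Below a log2 fold of 1, set 2 held 7 myomesin peaks with a −log10 p of at least 3, namely the 4 of Myom1 exon 19 and 3 of Myom2, at 0.38 and 0.50 in exon 20 and 0.45 in the 3′ UTR. These counts are not independent of the over-input values, since they rest on the same WT and KO libraries.

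The peaks enriched over input in set 1 WT had the same contrast between the sets. They were chosen for a high fold in that library, which also enters the set 1 direct fold. The contrast at these peaks is thus in part set by that choice. The exon 1 peak of Myom2 stood at 1.97 in WT over KO of set 1 (−log10 p 35.3) and 0.15 at its overlap in set 2 (0.82). The first of the exon 16 peaks shown above stood at 2.14 (42.7) and 0.02 (0.088), and that of exon 19 at 1.86 (29.8) and 0.17 (0.974). The highest Myom1 value with a −log10 p of at least 3 in set 1 was in exon 20 (chr17:71087444-71087573), with 2.33 (42.9). All of these lay below the log2 threshold of 3.

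The median log2 WT-over-KO fold of Myom2 was 1.16 in set 1 and 0.07 in set 2, that of Myom1 was 0.64 and 0.05, and that of Myom3 was 1.48 and 0.71. Over all peaks it was 0.74 and 0.30, and over all CDS peaks 0.82 and 0.05. Myom2 lay above both in set 1 and, in set 2, below the first and near the second. Myom1 lay below all peaks in both sets, and Myom3 above. At 63 places where Myom2 peaks of both WT libraries overlapped, the set 1 fold was the higher at 56, and it was so at 60 of 77 places in Myom1 and 7 of 8 in Myom3. At the KO peaks, the median log2 KO-over-WT fold was −0.94 and −0.08 for Myom2, −0.25 and −0.01 for Myom1, and −1.74 and 0.46 for Myom3, against 0.72 and 0.27 over all peaks. Myom1 and Myom2 lay below all peaks there in both sets, so Myom1 was under the median of all peaks in both directions of the comparison. Myom3, with 7 and 11 KO peaks, thus had opposite signs in the 2 sets. The KO-over-WT median of all peaks depends on region. It was −0.16 and 0.04 over all CDS peaks, where those of Myom1 had −1.05 and −0.02. Over all intron peaks it was 1.43 and 0.69, where those of Myom1 had 0.43 and 0.15.

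**Figure D5:**
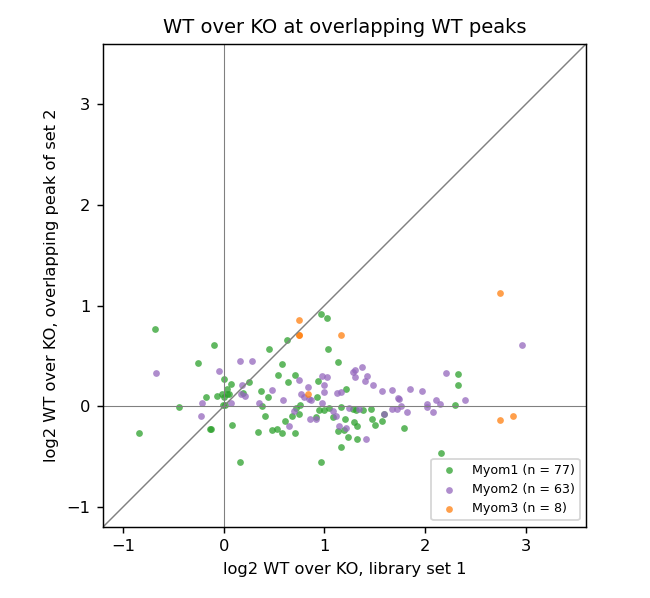
Log2 WT over KO in set 1 (horizontal axis) against that of the overlapping WT peak in set 2 (vertical axis), 1 point per set 1 peak, for 77 Myom1, 63 Myom2 and 8 Myom3 peaks; the diagonal marks equal values. Most points lie to the right of the diagonal and near 0 on the set 2 axis, where the medians of these points are −0.02, 0.08 and 0.71.

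A Myom3 peak chosen after its values were seen lay in exon 22 (chr4:135796278-135796426). It had a log2 fold over input of 2.40 in set 1 WT (−log10 p 3.76), 1.38 in set 1 KO, −0.26 in set 2 WT and 1.82 in set 2 KO. Its WT-over-KO fold was 2.88 in set 1 (−log10 p 7.75), the only Myom3 peak of the direct lists with a −log10 p of at least 3. That is 5.88% of the 17 Myom3 peaks, near the 6.03% of all peaks of that list with such a p. In set 2, WT over KO stood at −0.10 at the WT peak and KO over WT at −0.34 at the KO peak, so WT was not consistently the higher there. Other Myom3 peaks over input had a −log10 p of at most 1.12.

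Overlap between the sets measured how often a site was listed again. Of the Myom2 peaks, 94.0% of those in set 1 WT overlapped a WT peak of set 2 and 90.8% in the other direction. In KO the shares were 83.1% and 87.4%. For Myom1 they were 81.9% and 76.8% in WT, and 67.0% and 76.5% in KO. For Myom3 they were 47.1% and 53.3% in WT, and 42.9% and 27.3% in KO. Over all peaks they were 69.5% and 29.3% in WT and 54.1% and 28.3% in KO. Myomesin peaks of the 3 genes moved by 500 nt overlapped in 6.23% to 8.99%. Peaks covered at least 86.2% of the Myom1 and Myom2 mRNAs, and the part of that coverage in their recurrence was not tested.

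The words for 3 miRNAs were placed on the mRNAs and peaks. The miR-486-5p word occurred 0 times in the Myom1 and Myom2 mRNAs and 1 time in Myom3, at base 2553 in exon 20, while 24.1% of 1347 longest coding transcripts of 5000 to 6000 nt held it. A peak over the Myom3 word was listed in set 1 WT alone, with a log2 fold of 0.87 (−log10 p 0.134). Among member peaks extended by 25 nt, 2 in set 1 WT, 0 in set 1 KO, 2 in set 2 WT and 2 in set 2 KO held the word, against 0.677%, 0.596%, 0.777% and 0.801% of all peaks. The other matches in WT were a word across the end of Myom3 exon 12, with 6 of its bases in the exon (−0.71 in set 1 and −0.53 in set 2), and a Myom1 intron (chr17:71113827-71113901) with −0.26 in set 2. Those of set 2 KO were in an intron of Myom1 (chr17:71093502-71093698, 0.94) and of Myom3 (chr4:135785570-135785678, 0.82). None of these peaks was enriched in any library.

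The words of miR-206-3p and miR-133b-3p were placed in the same way. The miR-206-3p word occurred 1 time in the Myom1 mRNA, at base 4053 in exon 27, and 0 times in Myom2 and Myom3. It also lay in the intronic Myom1 peak shown above, at or within 25 nt of a peak in all 4 libraries. The miR-133b-3p word occurred 2 times in the Myom2 mRNA, at base 185 in exon 2 and base 1081 in exon 10, and 0 times in Myom1 and Myom3. The exon 10 peak had 2.76 in set 1 WT (−log10 p 24.9), 1.32 in set 1 KO (3.49), 1.01 in set 2 WT (15.3) and 1.24 in set 2 KO (20.4). Each of the 3 exonic words was overlapped by a peak in all 4 libraries, where peaks covered 86.2% to 96.6% of these mRNAs. Among the same 1347 transcripts, 30.2% held the miR-206-3p word and 30.3% the miR-133b-3p word. The share of all extended peaks with the miR-206-3p word was 4.81%, 3.08%, 3.32% and 3.00%, and with the miR-133b-3p word 2.45%, 1.78%, 2.08% and 1.99%. Of the Myom1 peaks, 6 of 94, 5 of 100, 4 of 138 and 6 of 153 held the miR-206-3p word. Of the Myom2 peaks, 2 of 67, 2 of 71, 0 of 120 and 0 of 119 did. The miR-133b-3p word was held by 2, 3, 3 and 6 Myom2 peaks and by 2, 2, 0 and 0 Myom1 peaks. No Myom3 peak held either word. A match is a place where pairing could occur and does not show which miRNA was bound.

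Words for let-7a-5p (CTACCTC) and miR-30a-5p (TGTTTAC) occurred 0 times in the 3 mRNAs. The miR-29a-3p word (TGGTGCT) occurred 1 time in Myom2, in exon 26, and 1 time in Myom3, in exon 31. In exon 26 a peak lay over it in all 4 libraries, and in exon 31 in set 2 KO alone. Of the 1347 transcripts, 33.2%, 33.7% and 45.7% held these 3 words.

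Other M-band genes stood beside the myomesins in the direct lists. All 13 genes of the M-band list, from the giant filament protein Ttn to the myosin chaperone Unc45b, had listed peaks in every library. In set 1, 170 of their 897 peaks passed a WT-over-KO log2 fold of 1 with the p limit, in 10 genes, and in set 2 it was 1 of 1784, against 4.85% and 0.403% of all peaks. Ttn alone held 135 of the 170 and 664 of the 897, so the set 1 count is mostly that of 1 gene. The median of the gene medians was 0.88 in set 1 and −0.03 in set 2, where all peaks had medians of 0.74 and 0.30. In set 1 the medians ran from 0.16 for Smyd1, a myosin methyltransferase, to 1.67 for Obsl1, a cytoskeletal adaptor. In set 2 they ran from −0.24 for Nbr1, a receptor of selective autophagy, to 0.44 for Lrrc39, a myosin-binding M-band protein. Both Myom1 and Myom2 lay within these ranges in both sets, and Myom3 in set 1 but not in set 2.

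The 7 genes of the thick filament list had 175 of 469 peaks past the same limits in set 1, in all 7 genes, and 3 of 801 in set 2, in 2 genes. Myh1 alone held 96 of the 175, with 103 of the 469 peaks. The median of medians of the list was 0.80 in set 1 and −0.08 in set 2. The fast myosin Myh2 was the lowest in both sets, with 0.10 and −0.29. The myosin-binding protein Mybph was the highest in both, with 3.66 over 10 peaks and 2.28 over 12. In set 1 all genes of both lists and the 3 myomesins had medians above 0, as did the median of all peaks, where 74364 of 92448 peaks were above 0.

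Across all 8 lists, the genes whose medians were closest to those of Myom1, by Euclidean distance among 807 genes with at least 20 peaks in each list, were Gm26561 (0.17), Gpi1 (0.36) and Cnot1 (0.38). Gm26561 shares the Myom1 peaks, so its place is no second observation. Those closest to Myom2 were Lpin1 (0.48), Uba1 (0.58) and Prpf8 (0.62). Those closest to Myom3, which itself has under 20 peaks in each list, were Eif3c (1.42), Hr (1.44) and Gpt2 (1.55). Myom2 was at 1.26 from Myom1, farther than 261 of the other genes were.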

How the data were processed

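Per the labels, RNA of TA muscle was crosslinked, bound to AGO2 and sequenced with a paired input. The submitters' processing notes name UMI-tools, cutadapt, FastQC, STAR and SAMtools, and GRCm38 (mm10). The study's methods name CLIPper as the peak caller. The authors deposited for each peak a log2 fold between the 2 libraries compared, and the −log10 of a p-value, written as 400 at most. These values are the authors' own throughout. No read counts were in these lists, so absolute depth is unknown and no interval can be given.

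Peaks were matched to GENCODE M21 genes (the labels name M24) with Python 3.11.15, pandas 2.3.3 and bedtools 2.31.1. Coordinates are 1-based. Overlaps needed 1 nt on the same strand. Region was read at the midpoint, with CDS first, then 3′ UTR, 5′ UTR, noncoding exon and intron. Exon numbers and mRNA positions follow the longest coding transcript. Seed words were searched in peaks extended by 25 nt. The seeds of miR-206-3p and miR-133b-3p stood for those of miR-1a-3p and miR-133a-3p. Overlap, gene membership, region at the midpoint and word search were checked on simulated data with planted overlaps, regions and words. The other steps were not checked in this way.

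Peaks of a gene share a library and a transcript, so values are given for each library and set without a test. Members and lists were chosen with earlier results of these data known. Peaks were named by a rule: the 3 enriched peaks with the highest fold per gene and library, those past the thresholds in a direct list, and those with a miR-486-5p word, beside any said to be chosen later.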

Additional observations from a re-analysis of the deposited data

How the results depend on the processing

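Over 13 results, 31 of 46 settings left the value within the spread of the sets or within 1.5 times the count. This leaves out the 26 settings with a set alone, whose ratios, percents and medians lie within that spread by construction. The log2 ratio of WT to KO peaks turned from −0.03 to 0.08 over peaks that overlap no other gene on the same strand, which leaves out every Myom1 peak, and was −0.12 with adjoining peaks merged. The Myom1 WT-over-KO median turned from 0.35 to −0.17 after the median over all peaks of the list was taken off. With a log2 fold of at least 1, enriched peaks made up 20.3% in WT and 10.8% in KO, against 3.27% and 0.353%. Each of these is a mean of the sets, and at the lower limit the sets went opposite ways. The set 1 WT library stood at 28.1%, above its KO partner at 3.93%. For set 2 the order was reversed, KO being at 17.7% and WT at 12.5%. All peaks gave WT shares of 7.14% and 5.37% by set, and KO shares of 1.99% and 4.72%. At that fold 53 WT-over-KO peaks passed, all in set 1. With a −log10 p of at least 2, 1 did, a Myom2 intron peak of set 1 with 3.48. Read at the 5′ end, 54.1% of WT and 44.3% of KO peaks lay in CDS, against 75.3% and 63.5%. Overlap of 50% of both peaks gave a recurrence of 47.3% in WT and 41.6% in KO, against 82.4% and 75.8%. Enriched WT peaks gave 54.5%, the mean of 9.09% of 11 peaks in set 1 and 100% of 1 peak in set 2. WT peaks with a miR-486-5p word numbered 7 with 50 nt of extension, against 4. With GTACAG, the first 6 bases of the word, they numbered 13, and with GTACAGA 2. Neither GTACAG nor GTACAGA pairs with base 2 of the miRNA, so these are not full seed matches. The cause was not tested.

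Each set alone gave 0.366% to 6.18% enriched in WT and 0% to 0.707% in KO. The WT-over-KO medians ran from 0.05 to 0.64 (Myom1), 0.07 to 1.16 (Myom2) and 0.71 to 1.48 (Myom3). WT peaks with the miR-486-5p word numbered 2 in each set. No enriched Myom1 or Myom3 peaks in both sets, and no enriched KO peaks in set 1, were there for the remaining settings, which gave no value. With the library set as a replicate block, an alternative chosen after seeing the data, the log2 ratio of WT to KO peaks was −0.03, as without it, since each set holds 1 library of each genotype. With 2 pairs no two-sided exact permutation p can go below 0.5, and none was computed.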
